A study of Mus musculus with 6 samples.

Results

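Kinesins are motor proteins that use ATP to move along microtubules or to take them apart. One set of them builds and separates the mitotic spindle and completes cytokinesis, and its transcripts are known to accumulate in G2 and mitosis. Another set carries vesicles, organelles and messenger RNA in cells at every stage, and a few serve the primary cilium and the centriole. The kinesin motor genes described here are the genes of the deposited table whose symbol is Kif, a number and an optional letter. Of 56691 genes 39 met this rule, out of 49 whose symbol starts with Kif. The 10 left out were pseudogenes, the opposite-strand transcript Kif16bos, the Kifc genes, and the partner genes Kifap3 and Kifbp. By their known roles 12 members were placed among spindle motors, 13 among transport motors, 7 among cilium and centriole kinesins and 7 among other kinesins.

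RNA came from 4T1, an established line of mouse mammary carcinoma cells. In 3 libraries the cells had KIRA6 at 1 µmol/L for 4 h, and in 3 libraries they had vehicle for 4 h, both in fresh complete RPMI 1640 medium. KIRA6 is a kinase inhibitor that binds IRE1α, which senses unfolded protein in the endoplasmic reticulum, and lowers its RNase activity. No genetic change is labelled in either group. The labels name no separate cultures, so p-values measure the spread between these libraries, which may be technical.

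Levels are in FPKM, the fragments of a gene scaled to its exonic length and to all fragments assigned to genes. The libraries held an estimated 18216250 to 21348700 assigned fragments with KIRA6 and 16498150 to 18583700 with vehicle. The epithelial markers Krt8, Krt18, Krt19, Epcam and Cdh1 summed to 1434 to 1533 FPKM with KIRA6 and 1261 to 1381 FPKM with vehicle. Leukocyte markers (Ptprc, Cd3e, Itgam and Lyz2) summed to 0.46 to 0.76 FPKM with KIRA6 and 0.08 to 0.39 FPKM with vehicle, with Cd3e at 0 throughout, and endothelial markers (Pecam1, Cdh5 and Kdr) to at most 0.06 FPKM in any library. Fibroblast markers (Col1a1, Col1a2, Dcn and Pdgfra) summed to 1.91 to 3.78 FPKM with KIRA6 and 0.44 to 0.77 FPKM with vehicle, most of it Pdgfra, and the part of these markers in the results below was not tested. Vehicle replicate 3 and KIRA6 replicate 1 stood apart from their groups at opposite ends of an axis that held 81.25% of the within-group variance. Results that rest on them are therefore given with and without them. Without both, the scores left on this axis were 0.17 and 0.33 with KIRA6 and −0.38 and −0.25 with vehicle. In that fit KIRA6 and the axis cannot be told apart, and genes that follow the axis shift by construction. In bulk RNA, a change in the share of cells in mitosis and a change in RNA per cell cannot be told apart.

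Most spindle motors with a promoter entry shared a short sequence, which is shown first because none of the tested transport motors with an entry had it. TTTGAA is known as the core of the CHR element, which the DREAM and MYBL2-MuvB complexes bind in genes of G2 and mitosis. RefSeq promoters of 300 bases, 250 before to 50 after the start on GRCm38.p6, were at hand for 31 of the 39 members and for 10 of 11 tested spindle motors. TTTGAA, on either strand, was in 9 of these 10, which leave out Kif20a, and in 0 of 7 tested transport motors. With untested members counted as well, it was in 9 of 11 spindle motors and 1 of 10 transport motors with an entry. Of all 27025 genes with a RefSeq promoter 20.2% held it, and of the tested genes among them 14.0%. Each window of 30 bases below is on the strand of the gene, with TTTGAA or its reverse complement TTCAAA in capitals, and shows the copy nearest the start.
Kif11 (chr19:37376351-37376380, plus strand): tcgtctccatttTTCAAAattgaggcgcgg
Kif15 (chr9:122951050-122951079, plus strand): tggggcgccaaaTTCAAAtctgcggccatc
Kif22 (chr7:127042420-127042449, minus strand): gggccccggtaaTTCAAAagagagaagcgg
Kif23 (chr9:61946780-61946809, minus strand): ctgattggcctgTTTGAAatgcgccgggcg
Kif18b (chr11:102925104-102925133, minus strand): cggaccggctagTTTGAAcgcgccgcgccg
Kif20b (chr19:34922353-34922382, plus strand): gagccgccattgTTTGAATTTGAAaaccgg
Kif4 (chrX:100626072-100626101, plus strand): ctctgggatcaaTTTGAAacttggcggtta
Kif2c (chr4:117178858-117178887, minus strand): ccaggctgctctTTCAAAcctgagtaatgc
Kif14 (chr1:136467608-136467637, plus strand): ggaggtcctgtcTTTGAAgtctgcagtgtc

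The motif lay within 20 bases of the annotated start in 7 of these 9 genes. In Kif11 and Kif15 its first base was 19 bases before the start, and in Kif22 17 bases before it. In Kif23, Kif18b, Kif20b and Kif4 it began at transcribed base 3, 4, 8 and 20, with a second copy directly behind it in Kif20b. In Kif2c and Kif14 it lay farther off, 103 and 228 bases before the start. The RefSeq starts of Kif4 and Kif14 were not matched to a GENCODE transcript, so their positions are less certain. Kif18a was the tested spindle motor whose window held no TTTGAA on either strand. CCAAT, the box bound by NF-Y, was in a promoter of 6 of the 10 spindle motor genes and of 3 of the 7 transport motor genes, against 43.7% of all tested genes with an entry. TTTAAA, a variant of the CHR core, was in 2 of the 10 and in 0 of the 7, against 10.7%. A match says only that the letters are there.

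The 250 bases before the start of Kif11 (chr19:37376132-37376381, plus strand) and Kif3a (chr11:53567119-53567368, plus strand) are shown as the spindle motor and the transport motor with the largest log2 fold change among called members. Capitals mark TTTGAA and CCAAT on either strand.
Kif11: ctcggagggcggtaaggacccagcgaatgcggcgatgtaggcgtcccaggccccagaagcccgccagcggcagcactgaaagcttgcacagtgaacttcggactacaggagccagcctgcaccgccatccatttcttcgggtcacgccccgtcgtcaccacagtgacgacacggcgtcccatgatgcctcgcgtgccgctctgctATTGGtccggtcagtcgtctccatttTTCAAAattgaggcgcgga
Kif3a: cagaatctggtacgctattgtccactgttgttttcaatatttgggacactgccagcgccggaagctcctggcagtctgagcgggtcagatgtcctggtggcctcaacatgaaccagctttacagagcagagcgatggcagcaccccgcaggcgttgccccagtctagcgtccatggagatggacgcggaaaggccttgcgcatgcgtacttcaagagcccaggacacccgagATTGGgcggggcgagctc

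Several kinesin transcripts were higher with KIRA6, more of them from spindle than from transport motors, and none was called lower. Of the 39 members 24 averaged 0.5 FPKM or more across all libraries and were tested, all of them with a vehicle mean of at least 0.667 FPKM. Of these, 9 rose and 0 fell by limma at an adjusted p below 0.05, while 15.6% of all 11778 tested genes rose and 7.98% fell. No member was lower at an unadjusted p below 0.05 either. With limma-voom on estimated fragments 9 were also called higher and 0 lower, against 1909 and 940 of all 11778 tested genes. The log2 fold change, on log2(FPKM + 0.5), was above 0 for 24 of 24 tested members and for 7331 of 11778 tested genes, though Kif2a and Kif3b turned below 0 with median-ratio, TMM and quantile scaling. Its median was 0.59 over the members and 0.16 over all tested genes. The KIRA6 and vehicle libraries did not overlap for 13 members, each higher with KIRA6, while 27.7% of all tested genes were higher and 14.1% lower without overlap.

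The deposited scaling set the size of these changes in part. Median-ratio scaling between libraries put the median of all tested genes at −0.04 in place of 0.16, and that of the members at 0.37. Under it 6 members rose and 0 fell, against 10.4% of all tested genes that rose. Of all tested genes 1224 then rose and 1556 fell, against 1843 and 940 on the deposited scale. Without both Vehicle replicate 3 and KIRA6 replicate 1, 22 members rose and 0 fell, against 35.9% of all tested genes. KIRA6 and the shared axis cannot be told apart in that fit.

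**Figure D1:**
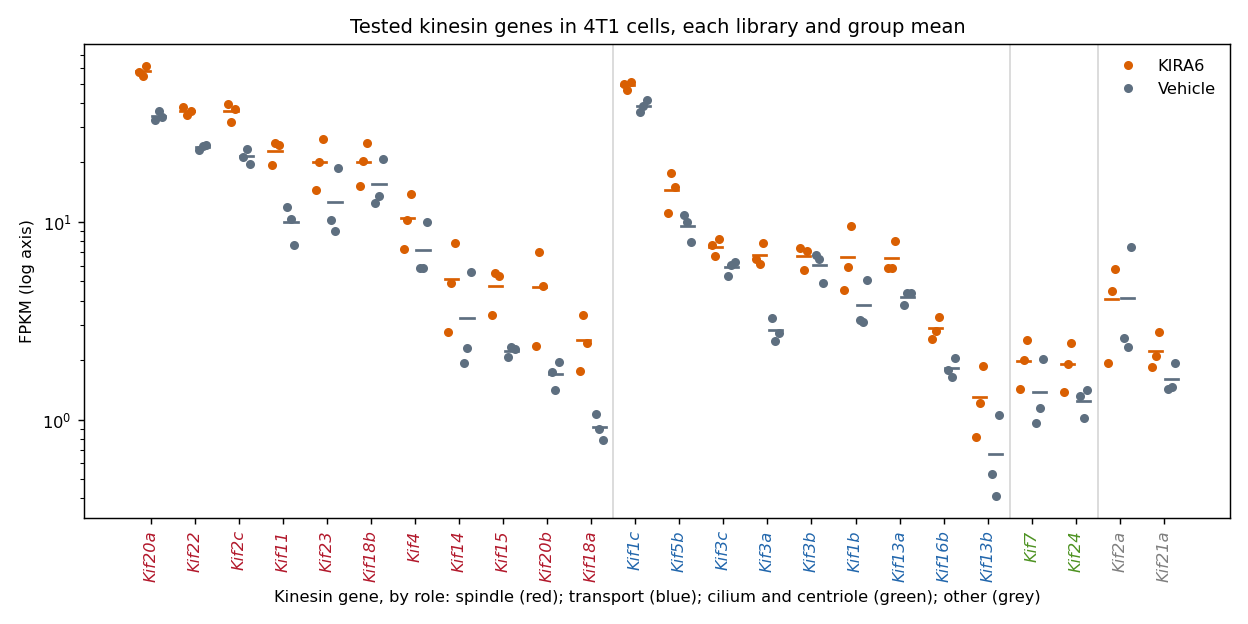
FPKM of the 24 tested kinesin genes on a log axis, with 1 point for each of 3 KIRA6 and 3 vehicle libraries and a bar at the group mean, ordered by role and by level. Kif20a and Kif1c were the most abundant spindle and transport motors, and Kif2a was the member whose KIRA6 mean did not exceed its vehicle mean.

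Among the spindle motors 6 of 11 tested members rose (54.5%), Kif20a, Kif11, Kif2c, Kif22, Kif18a and Kif15, against 15.6% of all tested genes. Under median-ratio scaling 5 of the 11 rose, against 10.4% of all tested genes. Kif11 (ENSMUSG00000012443, chromosome 19, 37364851 to 37410307 on GRCm39), which slides antiparallel microtubules to push the spindle poles apart, had 19.4, 24.9 and 24.4 FPKM in the KIRA6 libraries, against 11.9, 10.3 and 7.64 FPKM in the vehicle libraries. The lowest KIRA6 library was well above the highest vehicle library. The mean was 22.9 ± 3.06 FPKM with KIRA6 and 9.97 ± 2.17 FPKM with vehicle (SD over 3 libraries), a ratio of 2.30, and the log2 fold change was 1.17 ± 0.20 (SE, limma adjusted p = 0.008193). Kif15, which can stand in for Kif11 in keeping the spindle bipolar, had 3.38, 5.49 and 5.35 FPKM with KIRA6, against 2.08, 2.34 and 2.27 FPKM with vehicle. Its log2 fold change was 0.91 ± 0.20 (SE, limma adjusted p = 0.02089), and the groups did not overlap.

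Kif20a (ENSMUSG00000003779, chromosome 18, 34757666 to 34766330), which brings the Aurora B complex to the spindle midzone, was the most abundant kinesin with KIRA6. It had 57.1, 54.4 and 61.7 FPKM in the KIRA6 libraries, against 32.6, 36.5 and 34.03 FPKM in the vehicle libraries. The groups lay far apart and each was tight, with a log2 fold change of 0.74 ± 0.12 (SE, limma adjusted p = 0.00798). Kif2c (ENSMUSG00000028678, chromosome 4), a depolymerase that corrects faulty kinetochore attachments, had 39.5, 31.9 and 37.25 FPKM with KIRA6, against 21.2, 23.3 and 19.7 FPKM with vehicle. Its log2 fold change was almost the same, 0.74 ± 0.14 (SE, limma adjusted p = 0.0123).

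Kif22, a chromokinesin that pushes chromosome arms towards the spindle equator, had 38.1, 34.7 and 36.5 FPKM with KIRA6, against 23.0, 24.2 and 24.55 FPKM with vehicle. Its log2 fold change of 0.60 ± 0.12 (SE, limma adjusted p = 0.01349) was the smallest of the 6. Kif18a, which dampens chromosome movements at the metaphase plate, was the scarcest tested spindle motor, with 1.77, 3.36 and 2.44 FPKM in KIRA6 libraries, against 1.07, 0.9 and 0.79 FPKM in vehicle libraries. Its log2 fold change was 1.06 ± 0.22 (SE, limma adjusted p = 0.01703), on an estimated 372 to 602 fragments with KIRA6 and 144 to 192 with vehicle. The calls for Kif11, Kif20a and Kif2c held in all 20 alternative fits, some of them just under the threshold. With 1 library left out their limma adjusted p reached 0.04692, 0.04106 and 0.04964. Leaving out either Vehicle replicate 2 or KIRA6 replicate 2 ended the calls for Kif22, Kif15 and Kif18a. Omitting Vehicle replicate 1 ended those for Kif22 and Kif15, and omitting KIRA6 replicate 3 those for Kif15 and Kif18a. Kif22 was also lost under median-ratio scaling and Kif18a under quantile normalization. Kif22 and Kif4 have pseudogenes, which the table lists at 0 and which could share reads with them, so their levels are uncertain.

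**Figure D2:**
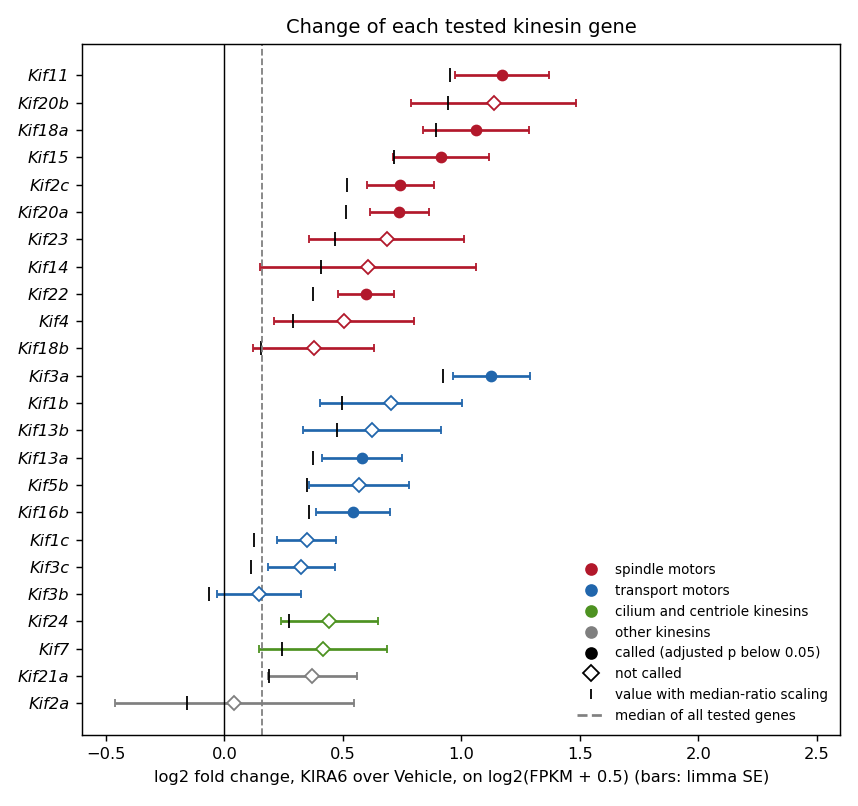
Log2 fold change of KIRA6 over vehicle for each tested kinesin gene with its limma standard error, by role, with filled points for called genes. All 24 points lie to the right of 0, 22 of them beyond the dashed line at the median of all tested genes (0.16), while the black ticks, from median-ratio scaling, lie to the left of 0 for Kif2a and Kif3b.

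The other 5 tested spindle motors were not called. Kif20b, which acts late in cytokinesis, had the second largest log2 fold change of the group, 1.14 ± 0.35 (SE, limma adjusted p = 0.05663), with 2.36, 7.0 and 4.71 FPKM in KIRA6 libraries, against 1.74, 1.41 and 1.96 FPKM in vehicle libraries. The groups did not overlap, but the KIRA6 libraries differed among themselves by more than the gap. Kif23, the motor of the centralspindlin complex, had 14.4, 19.99 and 26.1 FPKM with KIRA6, against 10.2, 8.96 and 18.8 FPKM with vehicle. Vehicle replicate 3 alone reached into the KIRA6 range, and the log2 fold change was 0.69 ± 0.33 (SE, limma adjusted p = 0.1777).

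Kif14, which recruits citron kinase to the midbody, Kif4, a chromokinesin that sets the length of the midzone with PRC1, and Kif18b, which controls astral microtubules, had the same form. Kif14 had 2.76, 4.9 and 7.8 FPKM with KIRA6, against 1.94, 2.3 and 5.56 FPKM with vehicle. Kif4 had 7.29, 10.2 and 13.9 FPKM with KIRA6, against 5.82, 5.86 and 9.94 FPKM with vehicle. Kif18b had 15.2, 20.4 and 24.9 FPKM with KIRA6, against 12.4, 13.4 and 20.7 FPKM with vehicle. In each of the 3, Vehicle replicate 3 was the highest vehicle library and KIRA6 replicate 1 the lowest KIRA6 library. Their log2 fold changes were 0.61 ± 0.45, 0.50 ± 0.29 and 0.38 ± 0.26 (SE, limma adjusted p = 0.3817, 0.2622 and 0.3355). Without both of these libraries 11 of 11 tested spindle motors were called higher, against 35.9% of all tested genes. That fit cannot tell KIRA6 apart from the shared axis, so the count is partly set by leaving them out. Kif2b, the 12th member, was listed at 0 in each library, where a count of 0 fragments allows up to 0.0626 to 0.081 FPKM.

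**Figure D3:**
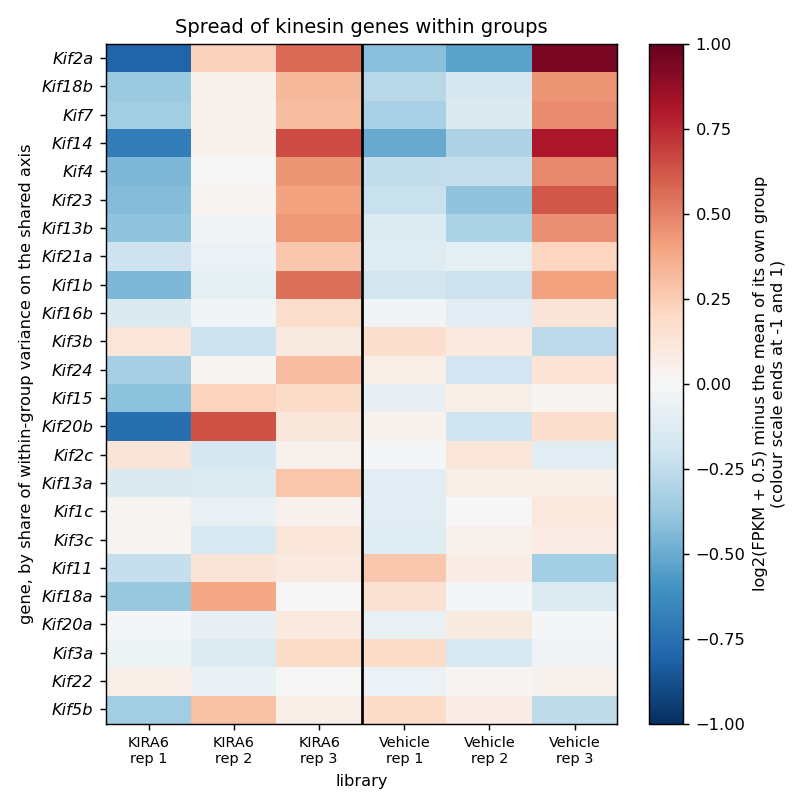
Deviation of each library from the mean of its own group, on log2(FPKM + 0.5), for the 24 tested kinesins, ordered by the share of their within-group variance on the axis shared by all tested genes. In the upper rows KIRA6 replicate 1 is low and KIRA6 replicate 3 and Vehicle replicate 3 are high, while Kif20a, Kif3a and Kif22 near the bottom stay close to white.

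The spread within groups was itself structured. For Kif2a, Kif18b, Kif7, Kif14, Kif4 and Kif23 over 90% of the within-group variance lay on the axis that set Vehicle replicate 3 and KIRA6 replicate 1 apart. For Kif20a, Kif18a, Kif3a, Kif5b and Kif22 the share was under 5%, and at most 4.06%. The median SD between libraries of a group was 0.26 (log2) over the 24 tested members and 0.25 over all tested genes.

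Of the 9 tested transport motors 3 rose (33.3%), Kif3a, Kif13a and Kif16b, against 15.6% of all tested genes. Under median-ratio scaling 1 of the 9 rose, Kif3a, against 10.4% of all tested genes. Kif3a (ENSMUSG00000018395, chromosome 11, 53458206 to 53492794 on GRCm39), a subunit of heterotrimeric kinesin-2 that works in cilia and vesicle transport, had 6.51, 6.12 and 7.77 FPKM in KIRA6 libraries, against 3.28, 2.5 and 2.75 FPKM in vehicle libraries. The groups lay far apart, with a ratio of 2.39, a log2 fold change of 1.13 ± 0.16 (SE) and the smallest adjusted p of any kinesin (limma adjusted p = 0.004663). The call held in all 20 alternative fits. Its motor partner Kif3b, by contrast, had 7.33, 5.7 and 7.13 FPKM with KIRA6, against 6.77, 6.45 and 4.9 FPKM with vehicle. These groups overlapped, and the log2 fold change of 0.15 ± 0.18 (SE, limma adjusted p = 0.6001) turned to −0.063 with median-ratio scaling. Kif3c, the alternative partner of Kif3a, had 7.64, 6.68 and 8.18 FPKM with KIRA6, against 5.35, 6.05 and 6.23 FPKM with vehicle, and was not called (limma adjusted p = 0.147). The difference in response between Kif3a and Kif3b was not tested.

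Kif13a, which moves endosomal cargo, had 5.83, 5.85 and 7.96 FPKM with KIRA6, against 3.81, 4.35 and 4.36 FPKM with vehicle. Kif16b, which positions early endosomes, had 2.55, 2.82 and 3.31 FPKM with KIRA6, against 1.78, 1.65 and 2.04 FPKM with vehicle. Both groups were separate, but the adjusted p lay just under the threshold (limma adjusted p = 0.04805 for Kif13a and 0.0474 for Kif16b). Both calls ended under each of the 4 other scalings, with a looser filter or none, and when any library but Vehicle replicate 3 was left out.

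Kif1c, a carrier of vesicles and of mRNA, was the most abundant transport motor, with 50.05, 46.6 and 50.7 FPKM in KIRA6 libraries, against 35.7, 38.4 and 41.5 FPKM in vehicle libraries. The groups did not overlap, yet the log2 fold change of 0.35 ± 0.12 (SE) missed the threshold (limma adjusted p = 0.08913), and it was 0.12 with median-ratio scaling. Kif5b, the widely used kinesin-1 heavy chain, had 11.1, 17.6 and 14.9 FPKM with KIRA6, against 10.8, 9.99 and 7.88 FPKM with vehicle (limma adjusted p = 0.09636). Kif1b, a carrier of mitochondria and synaptic vesicle precursors, had 4.52, 5.88 and 9.51 FPKM with KIRA6, against 3.2, 3.11 and 5.05 FPKM with vehicle (limma adjusted p = 0.1373). Kif13b, which transports signalling lipids and scaffolds, had 0.82, 1.21 and 1.86 FPKM with KIRA6, against 0.53, 0.41 and 1.06 FPKM with vehicle (limma adjusted p = 0.1719). Kif1b and Kif13b again had their highest vehicle value in replicate 3 and their lowest KIRA6 value in replicate 1. Without both of these libraries 7 of 9 tested transport motors were called higher, against 35.9% of all tested genes. Here too KIRA6 and the shared axis cannot be told apart.

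The motors known mainly from neurons were scarce. Kif5c had 0.54, 0.47 and 0.68 FPKM with KIRA6, against 0.15, 0.34 and 0.14 FPKM with vehicle, on an estimated 61.1 to 96.4 fragments with KIRA6 and 18.6 to 40.1 with vehicle. It was not tested under the filter used, and with the filter lowered to a mean of 0.1 FPKM it was called higher (limma adjusted p = 0.04913; adjusted p = 0.07576 with no filter). Kif5a had at most 0.14 FPKM in any library, and Kif1a and Kif17 had at most 0.01 and 0.05 FPKM, under 5 fragments per library.

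The comparison of spindle with transport motors gave a larger median for the spindle motors, by a small margin. The median log2 fold change was 0.74 over 11 spindle motors (range 0.38 to 1.17) and 0.57 over 9 transport motors (range 0.15 to 1.13), a difference of 0.17. Per library, the median spindle motor minus the median transport motor, each on log2(FPKM + 0.5) less its vehicle mean, was 0.15, 0.14 and 0.34 with KIRA6, against 0.03, −0.01 and −0.04 with vehicle. The KIRA6 values were all above the vehicle values. Over settings the difference ran from 0.11 to 0.44, a span larger than the 0.17 of the main fit. It was 0.11 with limma-voom. Without both Vehicle replicate 3 and KIRA6 replicate 1, where KIRA6 and the shared axis cannot be told apart, it was 0.44. With other role groups it was 0.11. Those role groups were a wider spindle group (Kif2a and Kif24 added) and a narrower transport group (Kif3a, Kif3b, Kif3c and Kif17 left out). Members are not replicates of a condition, so the difference has no test.

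**Figure D4:**
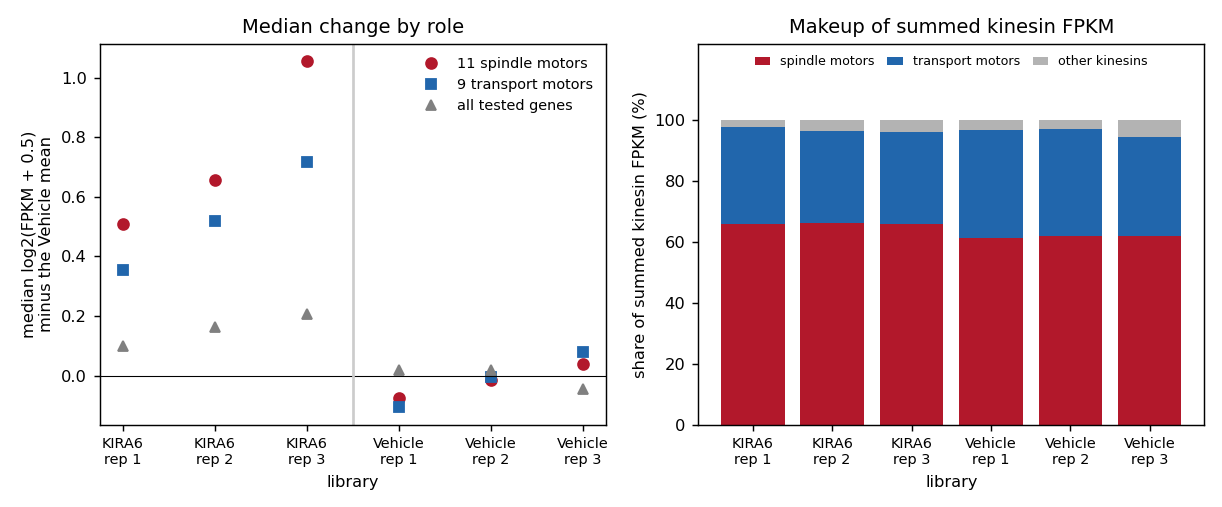
Left, the median over 11 spindle motors, 9 transport motors and all tested genes of log2(FPKM + 0.5) less the vehicle mean, in each library, where the spindle median is above the transport median in each KIRA6 library. Right, the share of summed kinesin FPKM taken by each role, where spindle motors hold 65.9% to 66.3% with KIRA6 and 61.4% to 62.1% with vehicle.

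In summed level the 39 kinesins held 305.4, 327.8 and 371.8 FPKM in the KIRA6 libraries, against 202.0, 208.9 and 235.0 FPKM in the vehicle libraries. The groups did not overlap. Spindle motors made up 65.9%, 66.3% and 65.9% of it with KIRA6, against 61.4%, 62.0% and 62.1% with vehicle, and transport motors 31.8%, 30.2% and 30.2% with KIRA6, against 35.4%, 35.1% and 32.3% with vehicle. Kif20a, Kif22 and Kif2c led the spindle motors in both groups. In order of mean level the first 4 kinesins were Kif20a, Kif1c, Kif22 and Kif2c with KIRA6, and Kif1c, Kif20a, Kif22 and Kif2c with vehicle. Kif22 and Kif2c, with 36.5 ± 1.73 and 36.2 ± 3.91 FPKM under KIRA6 (SD, n = 3), did not differ beyond their spread.

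The kinesins of the cilium and centriole and the remaining ones gave no call. Kif7, which tunes Hedgehog signalling at the cilium tip, had 1.42, 2.0 and 2.52 FPKM with KIRA6, against 0.96, 1.15 and 2.03 FPKM with vehicle (limma adjusted p = 0.3084). Kif24, which restrains cilium formation at the centriole, had 1.38, 1.9 and 2.43 FPKM with KIRA6, against 1.31, 1.02 and 1.41 FPKM with vehicle (limma adjusted p = 0.1694). Kif21a, which holds back microtubule growth at the cell cortex, had 1.84, 2.09 and 2.76 FPKM with KIRA6, against 1.42, 1.46 and 1.93 FPKM with vehicle (limma adjusted p = 0.2034). The groups overlapped for all 3.

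Kif2a, a depolymerase of spindle poles and neurites, had 1.94, 4.49 and 5.78 FPKM with KIRA6, against 2.59, 2.34 and 7.48 FPKM with vehicle. Vehicle replicate 3 was the highest of all 6 libraries and KIRA6 replicate 1 the lowest. The log2 fold change was 0.04 ± 0.50 (SE, limma adjusted p = 0.9652), and 0.92 without both of them, where Kif2a was called. Of its within-group variance 97.7% lay on the shared axis, which that fit cannot tell apart from KIRA6. Kif2a lies opposite Dimt1, which averaged 4.17 FPKM with KIRA6 and 10.2 FPKM with vehicle. The strand setting of the counting is not given in the sources used here, so reads of the pair cannot be told apart. Kif20a with Cdc23, Kif18a with Mettl15, Kif4 with Pdzd11 and Kif7 with Ticrr are likewise opposite-strand pairs with overlapping coordinates in which both genes were tested.

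Of the 15 members that were not tested 4 (Kif2b, Kif6, Kif12 and Kif19a) were listed at 0 in each library. Among the other 11, Kif5c, Kif5a, Kif9, Kif21b and Kif26b were higher with KIRA6 in each library than in any vehicle library. The share of all untested genes with this pattern was not computed, so the count has no background. KIRA6 libraries listed 17801 to 18060 genes above 0, against 16474 to 16843 in vehicle libraries. With vehicle, Kif5a rested on an estimated 2.3 to 2.6 fragments and Kif9 on 3.2 to 7.8. Kif26b had 0.16, 0.31 and 0.43 FPKM with KIRA6, against 0.05, 0.04 and 0.14 FPKM with vehicle, on an estimated 50.2 to 125.4 fragments with KIRA6 and 9.7 to 38.2 with vehicle. Kif21b had 0.12, 0.21 and 0.29 FPKM with KIRA6, against 0, 0.01 and 0.06 FPKM with vehicle, and Kif9, of motile cilia, had 0.15, 0.31 and 0.15 FPKM with KIRA6, against 0.09, 0.11 and 0.04 FPKM with vehicle. Kif19b, Kif26a, Kif27 and Kif28 had at most 0.1 FPKM in any library.

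Genes that act beside the motors are given for context, in lists drawn up by function. Of 25 tested spindle and cytokinesis partners 9 rose (36%) and 0 fell, against 15.6% and 7.98% of all tested genes, with a median log2 fold change of 0.58. Nusap1, which bundles spindle microtubules, averaged 38.1 ± 1.9 FPKM with KIRA6 and 7.96 ± 2.15 FPKM with vehicle (SD, n = 3 each). Ndc80, the microtubule anchor of the kinetochore, averaged 8.61 ± 1.16 FPKM with KIRA6 and 2.30 ± 0.345 FPKM with vehicle. Hmmr, a spindle assembly factor, averaged 20.4 ± 1.64 FPKM with KIRA6 and 7.39 ± 1.54 FPKM with vehicle. Ccnb2, which encodes cyclin B2, averaged 139.5 ± 15.03 FPKM with KIRA6 and 63.2 ± 4.74 FPKM with vehicle (limma adjusted p = 0.001294 to 0.00308 for these 4). Prc1, the midzone bundler that binds Kif4, rose too (log2 fold change 0.81). The mitotic kinase gene Plk1 averaged 103.7 ± 16.6 FPKM with KIRA6 and 80.5 ± 20.3 FPKM with vehicle and was not called (limma adjusted p = 0.26). TTTGAA was in a promoter of 15 of the 22 genes of this list with an entry, against 14.0% of all tested genes with one. Under median-ratio scaling 6 of the 25 rose and 0 fell, against 1224 (10.4%) and 1556 of all 11778 tested genes. Without both Vehicle replicate 3 and KIRA6 replicate 1, 18 rose and 1 fell, against 4227 (35.9%) and 2383 of all tested genes.

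**Figure D5:**
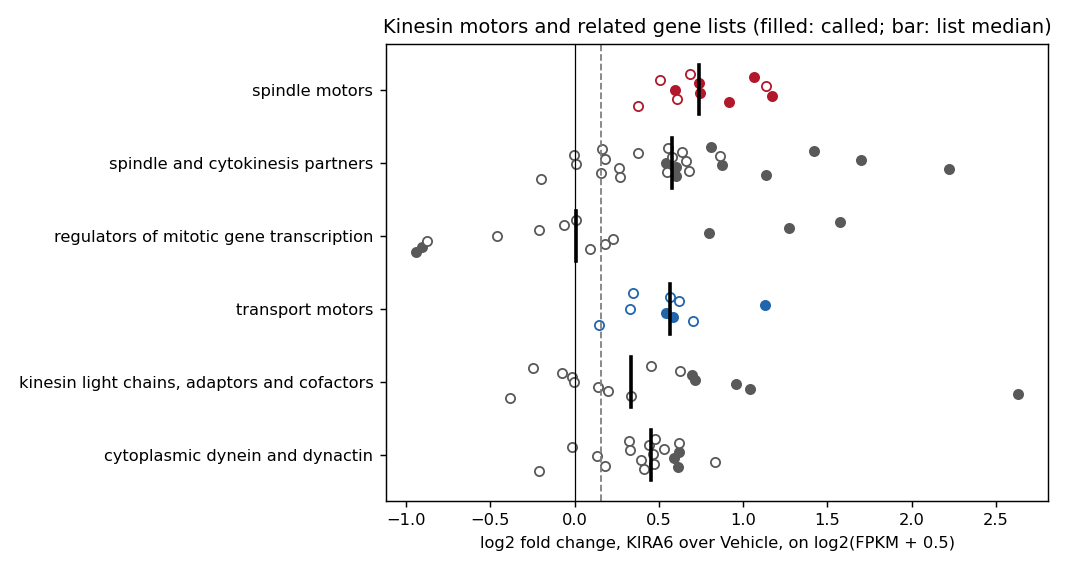
Log2 fold change of KIRA6 over vehicle for tested members of the spindle and transport motors and of 4 related lists, with filled points for called genes, a bar at the list median and a dashed line at the median of all tested genes (0.16). The motors and spindle partners lie mostly to the right of the dashed line, while regulators of mitotic gene transcription lie on both sides of it.

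The regulators of mitotic gene transcription gave calls both ways, 3 higher (23.1%) and 2 lower (15.4%) of 13 tested, against 15.6% higher and 7.98% lower over all tested genes. The pocket protein gene Rbl2 averaged 6.92 ± 1.37 FPKM with KIRA6 and 1.97 ± 0.208 FPKM with vehicle, and the MuvB subunit gene Lin37 13.7 ± 1.95 FPKM with KIRA6 and 5.37 ± 0.668 FPKM with vehicle (SD, n = 3 each). The CDK inhibitor gene Cdkn1a rose as well (log2 fold change 0.80). Mybl2, the activating partner of MuvB, fell to 16.4 ± 0.790 FPKM with KIRA6, against 31.3 ± 3.29 FPKM with vehicle. E2f4, named after its values were seen to complete the count, also fell (log2 fold change −0.94). Foxm1, an activator of mitotic genes, averaged 28.8 ± 9.14 FPKM with KIRA6 and 26.8 ± 15.1 FPKM with vehicle and was not called (limma adjusted p = 0.7916). Limma adjusted p of the 5 called genes ran from 0.002159 to 0.01787. Under median-ratio scaling 3 rose and 3 fell, against 1224 and 1556 of all tested genes, and without both libraries 4 rose and 3 fell, against 4227 and 2383.

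Of 15 tested kinesin light chains, adaptors and cofactors 5 rose and 0 fell. All tested genes, by comparison, gave 15.6% higher and 7.98% lower. Klc4, a kinesin-1 light chain, averaged 4.67 ± 0.953 FPKM with KIRA6 and 0.323 ± 0.00577 FPKM with vehicle (SD over 3 libraries), and its log2 fold change was 2.63 ± 0.18 (SE). Its vehicle mean lay below the filter of 0.5 FPKM, so it was tested only through its KIRA6 level, and the count of 5 includes it. Klc1, the main neuronal light chain, averaged 22.1 ± 4.66 FPKM with KIRA6 and 29.1 ± 5.93 FPKM with vehicle and was not called (limma adjusted p = 0.248). The JNK scaffold gene Mapk8ip1, which binds kinesin-1, had a log2 fold change of 1.04, and Kifap3, the non-motor subunit of the Kif3a complex, one of 0.95. Kifbp, an inhibitor of several kinesins, had one of 0.70. Klc3, the fifth, was named after its values were seen (log2 fold change 0.71). Under median-ratio scaling 4 rose and 0 fell, against 10.4% of all tested genes that rose. Without both libraries 10 rose and 2 fell, against 4227 (35.9%) and 2383 of all 11778 tested genes.

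Outside the Kif-number names 2 of 4 tested family genes rose and 0 fell, Kifc1 and Kifc5b, against 15.6% and 7.98% of all tested genes. Kifc5b lay just under the threshold (limma adjusted p = 0.04939). Under median-ratio scaling its call ended (limma adjusted p = 0.2364), and 1 of the 4 rose, against 10.4% of all tested genes. Without both libraries 3 rose and 0 fell, against 35.9% of all tested genes that rose. The minus-end spindle motor gene Kifc1 averaged 30.7 ± 1.84 FPKM with KIRA6 and 18.8 ± 0.820 FPKM with vehicle and rose (limma adjusted p = 0.008824), though its near-identical copy Kifc5b makes both uncertain. The kinetochore kinesin gene Cenpe averaged 6.83 ± 3.72 FPKM with KIRA6 and 2.43 ± 1.61 FPKM with vehicle and was not called (limma adjusted p = 0.1403). Kifc3, a minus-end motor named after its values were seen, went the other way, with 3.9, 6.46 and 6.59 FPKM with KIRA6, against 6.92, 10.9 and 17.9 FPKM with vehicle. These groups did not overlap, but Kifc3 was not called (log2 fold change −0.95 ± 0.36 SE, limma adjusted p = 0.1025). Of 18 tested genes of cytoplasmic dynein and dynactin, the minus-end transport machinery, 3 rose and 0 fell (Dctn2, Dync1i2 and Dctn4), with a median log2 fold change of 0.45. That is 16.7%, close to the 15.6% of all tested genes that rose. Under median-ratio scaling 0 rose, against 10.4% of all tested genes. Without both libraries 8 rose and 1 fell, against 4227 (35.9%) and 2383 of all 11778 tested genes.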

How the data were processed

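The file the authors deposited gives FPKM to 2 decimals for 56691 genes in 6 libraries, with exonic lengths and coordinates, per the file headers. The libraries were made from poly(A) RNA and kept strand information through dUTP, per the labels' protocols. The submitters' processing notes list DESeq2 1.34.0, HTSeq 0.6.1, HISAT2 2.2.1, cutadapt 1.9.1 and the build GRCm39. Depth was estimated from the steps between low values. Between 367 and 439 values per library were checked, and 100% lay within 0.1 of a whole fragment count. Limits at a count of 0 use 3 fragments and cover counting error only.

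KIRA6 was compared with vehicle in limma 3.58.1 (R 4.3.3) on log2(FPKM + 0.5). The 11778 genes tested averaged 0.5 FPKM or more. The empirical Bayes step was robust with an intensity trend, tests were two-sided, and Benjamini-Hochberg adjustment ran over all tested genes, with calls below 0.05. The file holds FPKM, so no test for raw counts was used. Errors are SD between libraries or limma SE. With 3 libraries a group, an exact permutation test could not reach a p under 0.1, so none is given. On simulated data for this comparison (11778 genes, 50 changed at each size), calls recovered 6% of genes at 1.5-fold. At 2-fold the share was 38%, at 4-fold 76% and at 8-fold 98%. There were 5 false calls among 114. The simulation drew noise for each gene independently and changed 200 genes. The real libraries shared an axis of spread and gave 2783 calls, so these rates may not hold for them. Alternatives changed the pseudocount, filter, scaling, empirical Bayes settings, library weights, role groups and test, added a replicate block, or left out libraries.

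The members, roles and lists were chosen with earlier results of these data known. Every member is accounted for. Related genes named are up to 4 called members of smallest p per list plus Cenpe, Kifc1, Foxm1, Mybl2, Prc1, Plk1 and Klc1, while E2f4, Klc3 and Kifc3 were added after their values were seen. Promoters came from RefSeq on GRCm38.p6, matched by symbol, and no coordinate was carried between builds.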

Additional observations from a re-analysis of the deposited data

How the results depend on the processing

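Leaving out 1 library at a time gave 4 to 10 members called higher and 0 lower, 3 to 7 spindle and 1 to 3 transport motors called higher, and a spindle minus transport difference of 0.17 to 0.32. Over the same fits 817 to 2064 of all 11778 tested genes were called higher and 394 to 1328 lower. Omitting Vehicle replicate 2 or KIRA6 replicate 2 left 4 calls (Kif20a, Kif11, Kif3a and Kif2c), and omitting Vehicle replicate 1 or KIRA6 replicate 3 left 5. With array weights, whose estimation did not converge (weights of 0.104 to 34.1), 23 members were called higher and 1 lower, with 11 spindle, 8 transport, 2 cilium and 2 other kinesins higher and a difference of 0.32. That fit called 6046 of all 11778 genes higher and 3957 lower. Without both Vehicle replicate 3 and KIRA6 replicate 1, 22 were called higher, with 11 spindle, 7 transport, 2 cilium and 2 other kinesins and a difference of 0.44, while 4227 of all tested genes were called higher and 2383 lower. These libraries were left out because they stood apart, which lowers the spread. Leaving them out also puts every KIRA6 library in that fit above 0 on the shared axis and every vehicle library below 0. KIRA6 and the axis therefore cannot be told apart there. Transport motors called higher numbered 1 with no filter, median-ratio scaling, TMM scaling, quantile normalization and rescaling to TPM. Of all tested genes, no filter gave 1600 higher of 22295 and rescaling to TPM 1746 of 13424. Median-ratio scaling, TMM scaling and quantile normalization gave 1224, 1363 and 1132 higher of 11778. The difference was 0.12 with a pseudocount of 0.1, 0.27 with a pseudocount of 1 and 0.29 with quantile normalization. It was 0.11 both with limma-voom and with the other role groups. Of 479 member values under alternatives 396 kept direction and call, 34 lost the call, 37 gained it and 12 changed sign. Kif2a turned to −0.16 with median-ratio scaling, −0.10 with TMM scaling and −0.21 with quantile normalization. With 1 library left out it lay between −0.24 and 0.52, and it was 0.92 without both libraries. Kif3b turned to −0.063 with median-ratio scaling, −0.0072 with TMM scaling, −0.020 with quantile normalization, −0.15 with array weights and −0.048 without both libraries, and lay between 0.015 and 0.25 with 1 library left out. Beyond what the scaling, the smaller number of libraries or the shared axis changes by construction, the cause was not tested. The replicate block gave 16 members called higher, with 10 spindle and 6 transport motors, while 2883 of all tested genes were called higher and 1540 lower. Whether same-numbered libraries belong together is not settled. Deviations of same-numbered libraries correlated by 0.76, −0.47 and 0.74. KIRA6 replicates 1 and 3 correlated best with the vehicle library of their own number, and KIRA6 replicate 2 with Vehicle replicate 3. These correlations cannot decide the pairing, because 81.25% of the within-group variance lay on the shared axis. On simulated data with independent noise 38% of genes changed 2-fold were recovered, and how far depth sets this was not tested.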
